A study of Mus musculus with 2 samples.

Results

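Cholesterol genes were read in 2 RNA sequencing libraries of sorted mouse lung epithelial cells. The set held 30 genes, given by symbol and chosen with earlier results of these data known, for the enzymes of cholesterol synthesis, the sterol sensors that set their transcription, and the proteins that move, export or esterify cholesterol. It was taken from 15113 genes listed in either deposited table. Of the members, 29 stood in the tables under their own symbol, and Msmo1 was found under its older symbol Sc4mol by GeneID 66234. All 30 were present in both tables, and 29 reached 1 RPKM (reads divided by gene length and by the library's total) in at least 1 library. The exception, Abcg1, was below that level in both and is given as reads only.

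The control library came from wild-type C57BL/6 mice without tumours. The tumour-bearing library came from C57BL/6 mice given 1000000 luciferase-labelled LLC cells, a Lewis lung carcinoma line, under the skin of the dorsum as a model of spontaneous metastasis to the lung. Both groups were 6 to 8 weeks old, and both libraries were made from lung cells sorted as CD45- and Sftpc+. The sources used here do not give the number of mice per library or the time between injection and sorting.

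Each group had 1 library, so no difference below was checked against replicates and no p-value is given. Reads per library were recovered from the deposited RPKM, 5335352 for the control and 5387114 for the tumour-bearing library. Bracketed ranges beside a fold are exact 95% intervals of the ratio of reads, and they cover counting error only. Where a pair of values stands without labels, the control comes first. The sort genes stood as the gate sets them, with Sftpc at 94903 and 54968 RPKM and Ptprc, which encodes CD45, at 12 and 2 reads in the control and tumour-bearing library. Summed RPKM of 10 alveolar type 2 (AT2) markers was 120570 and 79926, and without Sftpc 25667 and 24958. Of the 10 AT2 markers 7 had a log2 ratio below 0, 1 was at least 2-fold lower and 0 higher, and the median was -0.19. Markers of other cells were present too. Summed RPKM was 1771 and 2904 for 10 alveolar type 1 markers, 38536 and 41710 for 7 club cell markers, most of it from Scgb1a1, 35.6 and 255 for 10 fibroblast markers and 40.0 and 138 for 10 endothelial markers. All 10 alveolar type 1 markers had a log2 ratio above 0, 6 were at least 2-fold higher, and the median was 1.09. Of the club cell markers 5 had a log2 ratio below 0, 2 were at least 2-fold lower and 1 higher, and the median was -0.70. Fewer cells of a type and less RNA per cell cannot be told apart in such bulk libraries.

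Cells build cholesterol from acetyl-CoA through mevalonate, farnesyl diphosphate, squalene and lanosterol. The genes of this route are switched on together by SREBP2, a transcription factor encoded by Srebf2 that is held in the endoplasmic reticulum by INSIG proteins when sterol is plentiful and escorted by SCAP to the Golgi for cleavage when it is scarce. Excess sterol instead activates the LXR nuclear receptors, which induce the exporters ABCA1 and ABCG1. AT2 cells make surfactant, a lipid film in which cholesterol is the main neutral lipid.

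Most synthesis genes were lower in the tumour-bearing library, while the exporter Abca1 and 1 synthesis gene, Pmvk, were higher. On the scale log2((tumour-bearing RPKM + 1)/(control RPKM + 1)), 6 of the 29 members at 1 RPKM or more were at least 2-fold lower, against 6.53% of all 12288 genes at that level. These 6, 20.7% of the members, were Idi1, Tm7sf2, Msmo1, Nsdhl, Dhcr7 and Insig1. Another 2 (6.90%), Pmvk and Abca1, were at least 2-fold higher, a share below the 9.38% of all genes. The log2 ratio was below 0 for 21 of the 29 members (72.4%), compared with 46.2% of all genes. Under 4 other scalings of the libraries it was below 0 for 22 members, and the share of all genes was not computed there. The median log2 ratio was -0.49 over the members and 0.06 over all genes. Under those 4 scalings it was between -0.55 and -0.53 over the members and between -0.00 and 0.02 over all genes. With Msmo1 left out, as a match by symbol alone would have it, 5 of 28 members (17.9%) were at least 2-fold lower, and the median stayed at -0.49. Apart from the 2-fold rule, the interval of the fold excluded 1 for 24 of the 29 members. It lay wholly past 2-fold for 6, namely Pmvk, Tm7sf2, Msmo1, Nsdhl, Insig1 and Abca1. The shares of all genes with such intervals were not computed, so neither count can be called particular to the members. Of the 18 fatty acid and phospholipid synthesis genes at 1 RPKM or more, compared below, 17 had settled reads and thus an interval. It excluded 1 for 15 of these 17.

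**Figure D1:**
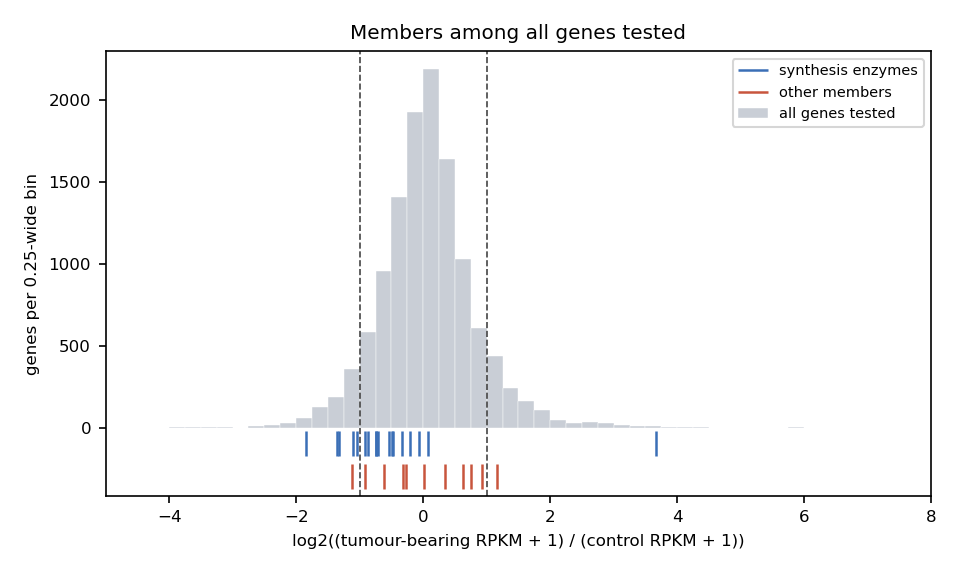
Grey bars count all 12288 genes at 1 RPKM or more by log2 ratio, blue ticks mark the 18 synthesis enzymes and red ticks the other 11 members, and dashed lines mark 2-fold. The blue ticks lie mostly left of 0, with Pmvk alone far to the right at 3.66, while the red ticks lie on both sides of 0.

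The 18 synthesis enzymes held most of the difference. Of these, 16 had a log2 ratio below 0, 5 were lower by 2-fold or more, 1 was higher by that much, and the median was -0.73. Their summed level went the other way, from 751 RPKM in the control to 854 RPKM in the tumour-bearing library. Pmvk alone accounts for that sign: without it the sum was 717 and 416 RPKM, and the median was -0.75. The 12 members outside the synthesis route, 11 of them at 1 RPKM or more, had a median of 0.02, the value of Npc1, whose sign depended on the scaling, with 1 past 2-fold in each direction.

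**Figure D2:**
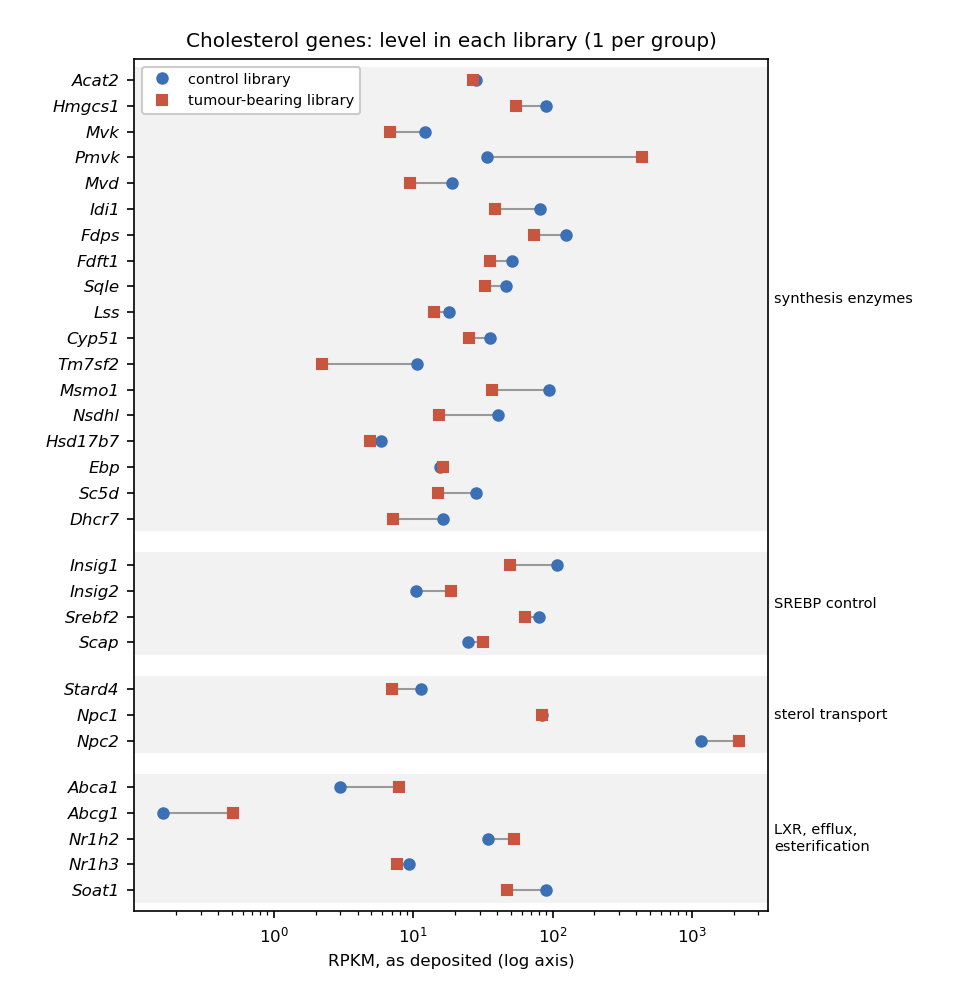
Level of each of the 30 members in RPKM on a log axis, with 1 circle for the control library and 1 square for the tumour-bearing library, ordered by role and by step of the pathway. Squares lie left of circles for 16 of 18 synthesis enzymes, and right of them for Pmvk, Ebp, Insig2, Scap, Npc1 (left under the other scalings), Npc2, Abca1, Abcg1 and Nr1h2.

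In the first part of the route, from acetyl-CoA to farnesyl diphosphate, 6 of 7 enzymes had a log2 ratio below 0, and Idi1 was the only one of them at least 2-fold lower. Hmgcs1 (GeneID 208715, chromosome 13, 119690351 to 119708260, plus strand), which makes HMG-CoA, was at 90.2 RPKM (control) and 54.8 RPKM (tumour-bearing). The control value was thus the higher, 1.65-fold (1.52 to 1.78), from 1581 and 970 reads. Idi1 (GeneID 319554, chromosome 13, 8885606 to 8892396, plus strand), the isopentenyl diphosphate isomerase, was at 80.9 and 38.9 RPKM. It was 2.08-fold lower in the latter (1.89 to 2.30). Fdps, farnesyl diphosphate synthase, was the most abundant enzyme of the route in the control, at 124 RPKM against 73.3 RPKM in the tumour-bearing library. That difference was 1.69-fold (1.53 to 1.88).

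Less abundant enzymes of the same segment lay on the same side. Mevalonate kinase, Mvk, was at 12.2 and 6.83 RPKM, 1.78-fold lower in the latter (1.29 to 2.46). Mvd, which decarboxylates mevalonate diphosphate, was at 19.0 and 9.56 RPKM, 1.99-fold lower (1.55 to 2.57), so that it stopped just short of the 2-fold rule. Acat2, the cytosolic thiolase that makes acetoacetyl-CoA, did not share this pattern. It was at 28.3 and 27.0 RPKM, and its interval, 0.894 to 1.23-fold lower, held 1.

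Pmvk (GeneID 68603, chromosome 3, 89454541 to 89469014, plus strand) stood apart from the other 17 enzymes. It encodes phosphomevalonate kinase, the step between Mvk and Mvd, and was at 33.8 RPKM (control) and 438 RPKM (tumour-bearing). The tumour-bearing value was 13.0-fold higher (11.3 to 15.0), from 217 and 2841 reads. Among all 12288 genes at 1 RPKM or more, 26 had a log2 ratio of 3.66 or above, Pmvk included. Its rank by level moved from 1816 to 112. No exon of another gene overlapped those of Pmvk in the GENCODE M21 annotation. The flanking genes, looked up after this value was seen, did not share its size of difference: Pbxip1 was at 36.4 and 61.4 RPKM, 1.69-fold higher (1.55 to 1.83), and Kcnn3 had 1 and 2 reads. Within the control library Hmgcs1 was at 2.67 times the level of Pmvk, and within the tumour-bearing library at 0.125 times.

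The 3 enzymes that join farnesyl diphosphate into squalene and fold it into lanosterol differed less. Fdft1, squalene synthase, was at 51.6 and 35.6 RPKM, 1.45-fold lower in the latter (1.30 to 1.62). Sqle, squalene epoxidase, was at 46.1 and 32.7 RPKM, 1.41-fold lower (1.25 to 1.59). Lss, lanosterol synthase, was at 18.1 and 14.2 RPKM, 1.27-fold lower (1.07 to 1.51). All 3 lay within 2-fold, and all 3 intervals excluded 1. Exons of Fdft1 share 774 bases, 18.3% of its exonic sequence, with Ctsb on the other strand. Ctsb, encoding the protease cathepsin B, was at 98.0 and 161 RPKM, and no source used here says whether reads were counted by strand.

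The last part of the route, from lanosterol to cholesterol, held 4 of the 6 members at least 2-fold lower. Its 8 enzymes had a median log2 ratio of -0.98, against -0.75 for the 7 enzymes of the first part and -0.48 for the 3 in the middle. Summed over these 8, the level was 247 RPKM (control) and 123 RPKM (tumour-bearing). Msmo1 (chromosome 8, 64718123 to 64733578, minus strand), the oxidase that starts removal of methyl groups from the ring, was at 93.8 and 37.0 RPKM, with 913 and 364 reads. It was 2.53-fold lower in the latter (2.24 to 2.87). Nsdhl (GeneID 18194, chromosome X, 72918521 to 72958528, plus strand), the dehydrogenase that acts on the product of Msmo1, was at 40.6 and 15.3 RPKM. Its difference was of like size, 2.65-fold lower (2.23 to 3.16). Hsd17b7, the reductase that completes this removal, was at 5.86 and 4.91 RPKM, and its interval, 0.930 to 1.53-fold lower, held 1. The 3 enzymes of the demethylation therefore did not move by the same amount.

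Tm7sf2 (GeneID 73166, chromosome 19, 6062821 to 6067850, minus strand), a sterol reductase, had the lowest log2 ratio of the set, -1.85. It was at 10.6 RPKM (control) and 2.23 RPKM (tumour-bearing), 4.77-fold lower (2.84 to 8.43). The width of that interval reflects its 85 and 18 reads. Of all genes at 1 RPKM or more, 0.879% had a log2 ratio as low. Exons of Tm7sf2 share 532 bases (12.1%) with Vps51 on the same strand, whose level was 12.3 and 10.2 RPKM. Dhcr7 (GeneID 13360, chromosome 7, 143823167 to 143848410, plus strand), whose enzyme reduces the last double bond on one branch of the route, was at 16.5 and 7.18 RPKM. It was 2.29-fold lower (1.83 to 2.90).

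The other 3 enzymes of this part lay within 2-fold. Sc5d, a sterol desaturase that acts just before Dhcr7, was at 28.3 and 15.1 RPKM, 1.88-fold lower (1.56 to 2.26). Cyp51, the cytochrome P450 that demethylates lanosterol, was at 35.6 and 25.1 RPKM, 1.42-fold lower (1.27 to 1.58). Ebp, a sterol isomerase, was the single enzyme besides Pmvk with a log2 ratio above 0, at 15.5 and 16.4 RPKM. Its interval, 0.839 to 1.34-fold higher, held 1, as did those of Acat2 and Hsd17b7.

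**Figure D3:**
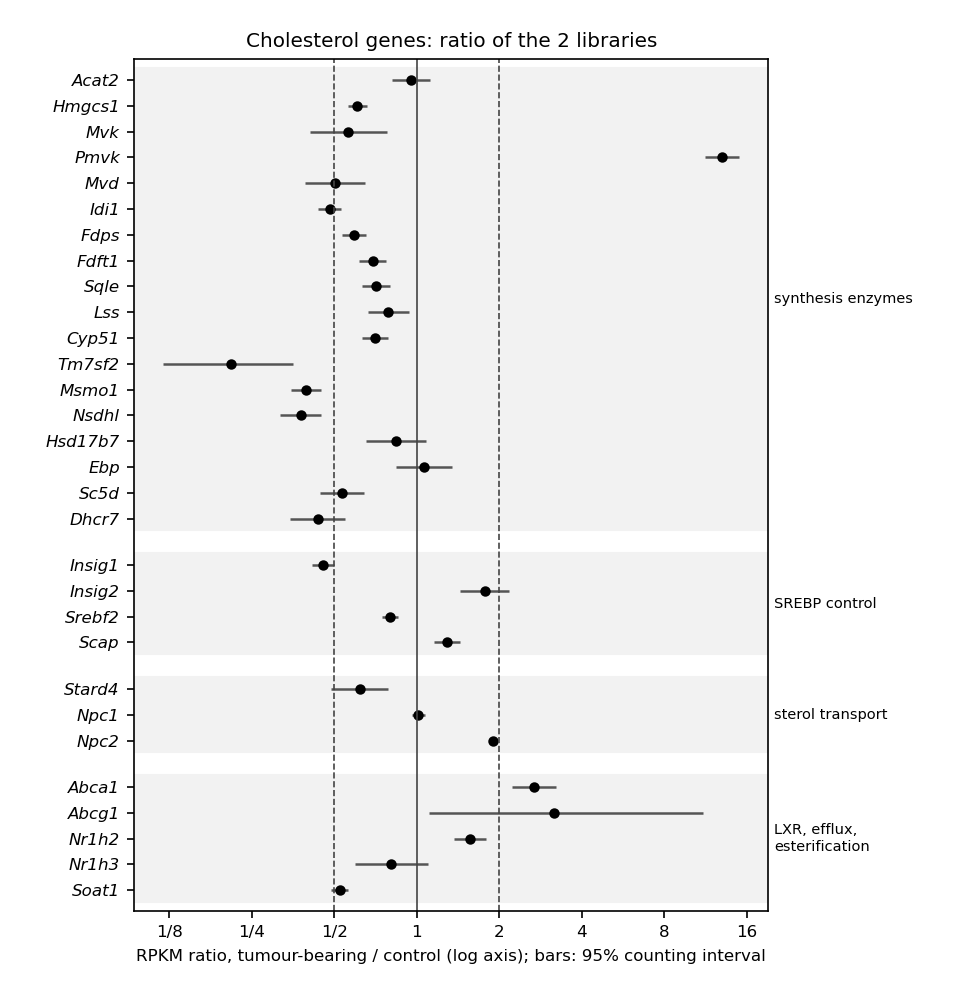
Ratio of tumour-bearing to control RPKM for each of the 30 members on a log axis, with bars for the 95% counting interval, a solid line at 1 and dashed lines at 2-fold. Pmvk lies at 13.0, Tm7sf2 is the lowest with a wide bar, and most other synthesis enzymes lie between 1 and 2-fold lower.

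Sequence before the start site is shown for 4 members with lower values, Hmgcs1, Idi1, Msmo1 and Insig1, and for Pmvk, which went the other way. Each line gives the 250 bases before an annotated start, 5′ to 3′ on the gene's strand, from RefSeq on GRCm38.p6. Capitals mark CCAAT or its reverse complement ATTGG, the letters bound by NF-Y, a partner of SREBP factors, and in Hmgcs1 also TCACCCCAC, a match to TCACNCCAC, a form of the sterol regulatory element.
Hmgcs1 promoter: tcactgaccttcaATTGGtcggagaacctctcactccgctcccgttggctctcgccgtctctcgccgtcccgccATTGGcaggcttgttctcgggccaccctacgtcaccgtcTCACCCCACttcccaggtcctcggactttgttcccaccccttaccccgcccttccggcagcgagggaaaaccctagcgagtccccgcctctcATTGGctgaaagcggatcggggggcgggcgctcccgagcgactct
Idi1 promoter: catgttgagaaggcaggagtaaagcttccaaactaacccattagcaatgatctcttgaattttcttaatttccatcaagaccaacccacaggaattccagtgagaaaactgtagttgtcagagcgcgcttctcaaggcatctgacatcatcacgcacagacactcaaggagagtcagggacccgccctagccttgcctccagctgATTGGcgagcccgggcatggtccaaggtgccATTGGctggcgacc
Msmo1 promoter: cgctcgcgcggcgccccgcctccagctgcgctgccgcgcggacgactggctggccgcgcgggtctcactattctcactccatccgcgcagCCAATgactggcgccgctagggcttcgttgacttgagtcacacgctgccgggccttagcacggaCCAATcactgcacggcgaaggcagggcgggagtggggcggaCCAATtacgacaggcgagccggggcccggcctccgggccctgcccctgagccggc
Insig1 promoter: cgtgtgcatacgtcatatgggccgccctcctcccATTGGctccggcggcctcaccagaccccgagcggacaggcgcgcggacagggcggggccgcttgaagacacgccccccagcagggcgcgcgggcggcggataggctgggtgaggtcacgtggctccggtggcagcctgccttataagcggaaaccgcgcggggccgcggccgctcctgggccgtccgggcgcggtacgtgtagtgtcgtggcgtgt
Pmvk promoter: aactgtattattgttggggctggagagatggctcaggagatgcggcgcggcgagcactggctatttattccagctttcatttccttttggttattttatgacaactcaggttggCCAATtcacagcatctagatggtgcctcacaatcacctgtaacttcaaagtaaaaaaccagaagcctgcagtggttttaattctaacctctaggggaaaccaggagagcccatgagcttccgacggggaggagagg
The windows lie at chr13:119690101-119690350 (plus strand) for Hmgcs1, chr13:8885356-8885605 (plus) for Idi1, chr8:64733579-64733828 (minus) for Msmo1, chr5:28071162-28071411 (plus) for Insig1 and chr3:89454291-89454540 (plus) for Pmvk. Pmvk has a further start in the RefSeq table, which is not shown.

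In Hmgcs1 the sterol element match began 137 bases before the start, with CCAAT matches at 237, 176 and 45 bases. Msmo1 had 3 CCAAT matches, at 160, 96 and 55 bases, and Idi1 had 2, at 45 and 14 bases. Insig1 and Pmvk had 1 each, at 216 and 136 bases. Promoters of 24 members were in the RefSeq table. CCAAT on either strand was found for 19 of the 24 (79.2%), against 37.5% of all 27025 genes in that table. The GC box GGGCGG on either strand was found for 20 of 24 (83.3%), against 35.4% of all genes. Each of these motifs was in the promoters of 6 of the 6 members at least 2-fold lower and 1 of the 2 at least 2-fold higher. TCACNCCAC was found for Hmgcs1 only, 4.17% of members against 1.22% of all genes. The shares of all genes include genes not expressed here, and the shares among genes at 1 RPKM or more were not computed. For 19 of the 24 members the bases after a start were found in a GENCODE M21 transcript of the gene. These are matches of letters in a fixed window, not measured binding.

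Among the genes that control SREBP2, the 2 INSIG genes lay on opposite sides. Insig1 (GeneID 231070, chromosome 5, 28071412 to 28078662, plus strand), which retains the SCAP complex and is itself a target of SREBP factors, was at 108 RPKM (control) and 49.3 RPKM (tumour-bearing). It was 2.20-fold lower (2.01 to 2.41), from 1541 and 708 reads. Insig2 (GeneID 72999, chromosome 1, 121304353 to 121332662, minus strand), which does the same but is not known as a strong SREBP target, was at 10.5 and 18.6 RPKM. It was 1.77-fold higher in the tumour-bearing sample (1.44 to 2.17), within the 2-fold rule. The level of Insig1 was therefore 10.3 times that of Insig2 in the control and 2.66 times in the tumour-bearing library.

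The factor and its escort differed little. Srebf2 was at 79.6 and 63.7 RPKM, 1.25-fold lower in the latter (1.17 to 1.34). Scap was at 24.6 and 31.7 RPKM, 1.29-fold higher (1.15 to 1.44). Both intervals excluded 1 and neither gene passed 2-fold. Insig1 was above Srebf2 in the control, at 1.36 times its level, and below it in the tumour-bearing library, at 0.774 times.

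Other genes of SREBP processing and sterol sensing, listed with earlier results of these data known, lay near 0. Of 11 such genes, 0 were at least 2-fold lower or higher, and the median was 0.03, or between -0.02 and -0.01 under the other scalings. Srebf1, named after its values were seen, which encodes the SREBP of fatty acid synthesis, was at 77.7 and 88.3 RPKM, 1.14-fold higher (1.07 to 1.21). Srebf2 was at 1.02 times the level of Srebf1 in the control and 0.721 times in the tumour-bearing library. Erlin1, a membrane protein that binds sterol and restrains SREBP, was at 16.3 and 32.5 RPKM, 1.99-fold higher (1.73 to 2.30). Nfyb, a subunit of NF-Y, was at 10.5 and 5.89 RPKM, 1.78-fold lower (1.35 to 2.37), and Mbtps1, a protease that cleaves SREBP, was at 33.4 and 27.3 RPKM.

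The branch that turns farnesyl diphosphate into other isoprenoids did not share the direction of the sterol enzymes. Of 8 listed genes, 6 reached 1 RPKM, 5 of these had a log2 ratio above 0 (4 under the other scalings), and 0 passed 2-fold, with a median of 0.30. Nus1, a subunit of the enzyme that makes dolichol precursors, was at 9.51 and 15.7 RPKM, 1.65-fold higher (1.40 to 1.95). Fnta, the shared subunit of protein prenyltransferases, was at 21.5 and 27.7 RPKM. Ggps1, which makes geranylgeranyl diphosphate, was at 9.97 and 12.4 RPKM, and Dhdds, the partner of Nus1, at 13.9 and 11.3 RPKM.

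The genes of cholesterol transport inside the cell went in different directions. Npc2 (GeneID 67963, chromosome 12, 84754559 to 84773112, minus strand), a soluble lysosomal protein that binds cholesterol, was the most abundant member by far, at 1157 RPKM (control) and 2185 RPKM (tumour-bearing). It was 1.89-fold higher (1.86 to 1.92), from 20230 and 38590 reads, and its rank among all genes was 22 and 13. Npc1, the lysosomal membrane protein that receives cholesterol from NPC2, was at 83.4 and 84.5 RPKM. Its log2 ratio was 0.02 and turned to between -0.05 and -0.03 under the 4 other scalings of the libraries. Npc2 was at 13.9 times the level of Npc1 in the control and 25.9 times in the tumour-bearing library. Stard4, a carrier that moves sterol between membranes and an SREBP target, was at 11.4 and 7.09 RPKM, 1.61-fold lower (1.27 to 2.06).

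Other uptake, lysosomal and sterol transfer genes lay mostly within 2-fold. Of 12 at 1 RPKM or more out of 13 listed, 9 had a log2 ratio above 0 (8 under the other scalings), 1 passed 2-fold upward and 0 downward, and the median was 0.15. The 1 gene was Lrp1, a large endocytic receptor, at 1.06 and 13.1 RPKM, 12.4-fold higher (9.90 to 15.6) from 84 and 1049 reads. Fibroblasts express Lrp1 strongly, and summed fibroblast markers were at 35.6 and 255 RPKM, with 9 of the 9 such genes at 1 RPKM or more above a log2 ratio of 0. Their part in the Lrp1 value was not tested. Vldlr, a lipoprotein receptor, was at 11.4 and 20.7 RPKM, 1.81-fold higher (1.62 to 2.02). Scarb2, a lysosomal membrane protein, was at 123 and 181 RPKM, and Gramd1a, a sterol carrier at membrane contacts, at 9.30 and 13.7 RPKM.

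On the export side, Abca1 (GeneID 11303, chromosome 4, 53030789 to 53159988, minus strand), which passes cholesterol to apolipoproteins, was at 2.98 RPKM (control) and 7.96 RPKM (tumour-bearing). It was 2.67-fold higher (2.23 to 3.22), from 163 and 440 reads. Abcg1, its companion exporter, had 5 and 16 reads, a ratio of 3.17 with an interval of 1.11 to 11.1. Both exporters were therefore low in these cells, with the tumour-bearing library the higher for each. Macrophages and endothelial cells also express Abca1. Summed RPKM of 9 macrophage markers, leaving out Lyz2 because AT2 cells express it, was 15.0 and 46.7, with Marco, Mrc1, Adgre1 and Siglecf at 0 in both libraries. Of the other 5, Cd68 was at 7.81 and 31.5 RPKM, Csf1r at 62 and 139 reads and C1qa at 1.91 and 2.92 RPKM, while C1qb had 0 and 32 reads and Chil3 19 and 0 reads. Pan-leukocyte markers summed to 5.41 and 3.95 RPKM over 6 genes. Endothelial markers, at 40.0 and 138 RPKM in sum, had 8 of 10 genes at least 2-fold higher. The part of any of these cells in the values of Abca1 and Npc2 was not tested.

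The LXR receptors that act on these exporters did not move together. Nr1h2, encoding the broadly expressed LXR beta, was at 34.3 and 53.3 RPKM, 1.56-fold higher (1.36 to 1.78). Nr1h3, encoding LXR alpha, was at 9.40 and 7.60 RPKM, and its interval, 0.911 to 1.68-fold lower, held 1. Soat1 (GeneID 20652, chromosome 1, 156428108 to 156474328, minus strand), which esterifies cholesterol for storage, was at 89.5 and 46.9 RPKM. The control was the higher, 1.91-fold (1.78 to 2.05), short of 2-fold. Within the tumour-bearing library Soat1 was still at 5.89 times the level of Abca1.

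Further LXR partners and targets, taken as 1 list with oxysterol and sterol ester genes, were higher more often than not. Of 10 at 1 RPKM or more out of 12 listed, 8 had a log2 ratio above 0 (7 under the other scalings), 3 passed 2-fold upward and 0 downward, and the median was 0.46. Rxra, the partner receptor of LXR, was at 11.1 and 24.9 RPKM, 2.25-fold higher (1.96 to 2.58). The others past 2-fold, Ch25h and Cyp7b1, were low and are named after their values were seen. Ch25h, which makes an oxysterol, had 4 and 34 reads, and Cyp7b1, which breaks oxysterols down, had 0 and 18 reads, a lower bound of 5.94-fold with the control set at a floor of 3 reads. Lpcat3, an LXR target that remodels phospholipids, was at 23.9 and 47.6 RPKM, 1.99-fold higher (1.74 to 2.29). Arl4c was at 20.2 and 28.5 RPKM. Pltp, at 15.4 and 14.5 RPKM, and Smpdl3a, at 50.1 and 50.9 RPKM, were also named after their values were seen. The intervals of both held 1. Mylip, an LXR target that encodes a ubiquitin ligase for lipoprotein receptors, was at 15.2 and 9.52 RPKM, 1.60-fold lower (1.30 to 1.97). The genes past 2-fold were thus a receptor partner and oxysterol enzymes. The LXR targets Lpcat3 and Mylip lay within 2-fold on opposite sides.

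Fatty acid and phospholipid synthesis, the lipid route most like this one, is partly driven by the same family of factors. Its list held 18 genes at 1 RPKM or more out of 19, with a median of -0.23, compared with -0.73 for the 18 sterol enzymes. In it 3 genes (16.7%) passed 2-fold downward and 0 upward, compared with 5 (27.8%) and 1 of the sterol enzymes. The difference between the lists was not tested. Fads2 and Fads1, desaturases of polyunsaturated fatty acids, were at 39.4 and 12.2 RPKM and at 114 and 54.4 RPKM. Fads2 was thus 3.23-fold lower (2.57 to 4.09) and Fads1 2.09-fold lower (1.94 to 2.26). Elovl1, an elongase of very long chains, was at 1002 and 480 RPKM, 2.09-fold lower (2.01 to 2.16). Acly, which supplies cytosolic acetyl-CoA to both routes, was at 213 and 111 RPKM, 1.91-fold lower.

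**Figure D4:**
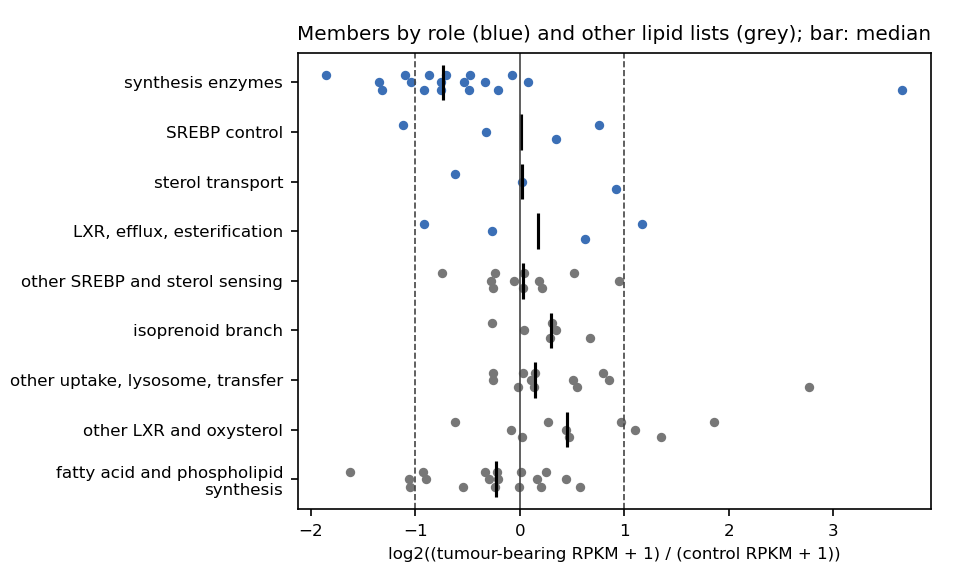
Log2 ratio of each gene at 1 RPKM or more, by list, with members in blue, other lipid lists in grey, black bars at the medians and dashed lines at 2-fold. The synthesis enzymes have the lowest median of the 9 lists drawn, -0.73, and the isolated points at the right are Pmvk at 3.66 and Lrp1 at 2.77.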

How the data were processed

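The authors deposited 1 table per library with GeneID, symbol, description and RPKM of each gene, per the file headers. Per the submitters' processing notes, reads were trimmed with Trimmomatic and mm10 was used. The sources used here do not give the aligner, counter, annotation or strand setting. RPKM values were compared as deposited, and an unlisted gene counted as 0. Because RPKM is relative to the library total, a gene as abundant as Sftpc affects every other value. Sftpc was at 18.6% and 11.2% of summed RPKM, which is per gene length and so is not its share of reads. Symbols, positions and promoters came from RefSeq tables of GRCm38.p6, the assembly of mm10, with 15080 of 15113 genes matched by GeneID.

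The measure was log2 of the RPKM ratio with a pseudocount of 1, for genes at 1 RPKM or more in either library, with a 2-fold size rule. No test was possible with 1 library per group. Folds are direct ratios of RPKM, so they can differ slightly from the log2 values. The library totals were the largest numbers at which the last 100 rows of each table, taken as genes with 1 read, implied whole gene lengths. Reads of other genes were the whole numbers that gave both RPKM values with 1 length, with common multiples settled by the descending order of rows, in which 10 of 28189 neighbouring pairs were out of order. This settled 15085 genes (99.8%), all 30 members included. The totals are estimates, not values the authors state. On simulated reads for 14926 genes, 99.99% of those settled were right. Intervals are exact (Clopper-Pearson) conditional binomial, and PCR copies are not independent molecules.

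The 30 members and all gene lists were chosen with earlier results of these data known. The genes named were the members, Sftpc, Ptprc and, per other list, up to 4 genes at 5 RPKM or more with the log2 ratio farthest from 0, apart from 1 gene that is not reported here. Named outside this rule, after their values were seen, were Srebf1, Ch25h, Cyp7b1, Pltp and Smpdl3a. So were the neighbours Pbxip1 and Kcnn3 and the overlapping genes Ctsb and Vps51. The same holds for the markers Scgb1a1, Lyz2, Marco, Mrc1, Adgre1, Siglecf, Cd68, Csf1r, C1qa, C1qb and Chil3. Computation used Python 3.11.15, numpy 2.4.6, pandas 2.3.3 and scipy 1.17.1.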

Additional observations from a re-analysis of the deposited data

How the results depend on the processing

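Scaling by a trimmed mean, by the upper quartile or to the sum without Sftpc, centring on the median, a pseudocount of 0.1, no filter, a filter at 5 RPKM and recovered reads with 0.5 added each left the same 8 members past 2-fold in the same direction. The shares of all genes were not the same throughout. With a pseudocount of 0.1, 10.1% of all genes were lower and 12.5% higher, and with recovered reads 10.4% and 12.8%. In the rest of these settings 4.85% to 7.19% were lower and 7.63% to 8.86% higher. With a pseudocount of 5, Abca1, Dhcr7 and Idi1 were lost, which left 1 member at least 2-fold higher and 4 lower, against 3.01% and 1.55% of all genes. With a threshold of 1.5-fold, 13 members were lower and 5 higher, against 16.1% and 19.4% of all genes. With a threshold of 4-fold, 0 were lower and 1, Pmvk, higher, against 0.610% and 1.66% of all genes. Of 210 pairs of a member and a setting, 205 moved by less than the distance from the value to the farther end of its counting interval and 5 by more, 4 of Npc2 and 1 of Abca1. Among the 205, 4 of Npc1 changed sign. Leaving out Pmvk, chosen after its value was seen, gave medians of -0.51 for the members and -0.75 for the synthesis enzymes. No paired analysis was possible because each group held 1 library, and for the same reason no replicate could be left out. Depth limited Abcg1 and Tm7sf2 most, with 5 and 18 reads in the lower library.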
